A study of Nicotiana benthamiana with 9 samples.

Results

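In leaves of Nicotiana benthamiana, 98 of the 56094 sequences of the deposited table had at least 10 counts in each heat library and none in the mock and wounded libraries. These sequences, silent until heat at the depth reached, were chosen by those counts alone, so their difference between heat and the other groups is a description and carries no test. The study compared 3 groups of 3 libraries of total RNA from leaves of 5-week-old plants grown in soil: mock plants left unwounded at 23 °C for 1 h, plants exposed to 37 °C for 1 h, and plants kept at 23 °C for 1 h after their leaves had been wounded with scissors. The labels name no genotype, cultivar, transgene or allele, and the series describes the libraries of a group as biological replicates. Nicotiana benthamiana is a relative of tobacco and a common laboratory host for transient expression.

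In plants, a rise in temperature frees heat shock transcription factors, which bind short elements upstream of their target genes and switch on chaperones such as the small heat shock proteins and members of the larger chaperone families. Many of these targets are almost silent in unstressed leaves and are transcribed within minutes of heat. Draft genome assemblies hold many unplaced fragments beside long scaffolds, and a transcript can fall on either. A scaffold is a chain of assembled pieces joined across gaps, and a contig is 1 gapless assembled piece.

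Each row of the table is a whole assembly sequence, not a gene: all 56094 rows start at position 1, and 0 carry an identifier. The names divide them into 39565 scaffolds and 16529 contigs, whose lengths run from 500 to 2838176 nt. The table does not link its rows to genes and an annotation was not used here, so neither the heat-induced transcripts nor the leaf label could be checked against known genes. At most 2 identifiers are printed for that reason, and the other members are described by type, length and values. Library totals ran from 13846165 to 17480792 counts. Because the leaves were measured in bulk, more cells transcribing a sequence and more RNA per cell cannot be told apart.

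Silence in mock and wounded leaves was common, and a steady count after heat on top of it was rare. Of the 56094 rows, 41156 had no count in the 6 mock and wounded libraries, and 39818 of those had none after heat either. The remaining 1338 were counted in heat libraries alone: 843 in 1 heat library, 197 in 2 and 298 in all 3. Rows seen in 1 heat library had a median of 2 counts, and those seen in all 3 had a median summed count of 27. The 98 members made up 7.32% of the 1338 rows and held 76.4% of their 28605 heat counts. A large share follows from the rule, which required at least 10 counts in each heat library.

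The same rule with the groups exchanged found far fewer rows. It gave 4 sequences with at least 10 counts in every wounded library and none elsewhere, and 0 for mock. Those 4 were a scaffold of 34776 nt, scaffolds of 718 and 908 nt and a contig of 1010 nt, with summed wounded counts of 165, 73, 60 and 150. At a minimum of 1 count per library the numbers were 298 for heat, 20 for wounding and 15 for mock. In contrast, rows with any count in 1 group alone were closer in number, at 1338 for heat, 927 for wounding and 986 for mock. No row had at least 10 counts in all 6 mock and wounded libraries and none after heat.

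**Figure D1:**
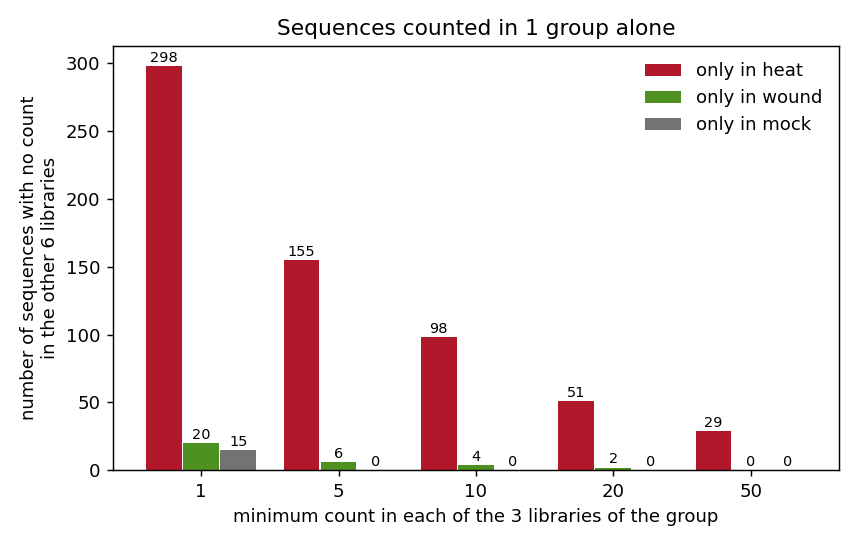
Number of assembly sequences (vertical axis) with at least the given count in each of the 3 libraries of 1 group (horizontal axis) and no count in the other 6 libraries, for heat (red), wound (green) and mock (grey). At a minimum of 10 counts there are 98 for heat, 4 for wound and 0 for mock.

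The members were short. The shortest had 514 nt, the longest 425468 nt and the median member 922 nt, and 54 were under 1000 nt. In all, 78 (79.6%) were under 2000 nt, 12 lay from 2000 to under 20000 nt, 6 from 20000 to under 200000 nt and 2 were 200000 nt or longer. The whole table has nearly the same make-up, with a median of 932 nt and 74.3% under 2000 nt. The 8637 other rows with at least 10 counts in each heat library do not: their median was 225440 nt, and 8.61% were under 2000 nt. A long row can pool the transcripts of many genes, so a single count from any of them in any of the 6 mock and wounded libraries takes it out of the members.

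By type, 87 members were scaffolds and 11 were contigs (11.2%, with an exact 95% binomial interval of 5.74% to 19.2%). Contigs made up 10.5% of the other rows with at least 10 counts in each heat library and 29.5% of all rows. Those similar overall shares hide a contrast among short rows. Of the 254 scaffolds under 2000 nt with at least 10 counts in each heat library, 73 (28.7%, exact 95% interval 23.3% to 34.7%) were silent in mock and wounded leaves. Of the 568 contigs of that length that passed the same minimum, 5 were (0.88%, 0.286% to 2.04%). Intervals here treat rows as independent, cover counting only and do not measure variation between plants. From 2000 to under 20000 nt the shares were 3.03% of 198 scaffolds and 1.72% of 349 contigs, with intervals that overlap.

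The contrast was also present within narrower classes of length and of read depth. Among sequences of 500 to under 750 nt, 32 of 84 scaffolds (38.1%) and 3 of 185 contigs (1.62%) with the heat minimum were members. From 1000 to under 1500 nt they were 17 of 73 (23.3%) and 2 of 159 (1.26%). At a mean heat count of 10 to under 30 the members were 36 of 106 short scaffolds (34%) and 1 of 169 short contigs (0.592%), and at 100 to under 1000 they were 15 of 51 (29.4%) and 0 of 122. The short contigs were for the most part expressed in every group: 453 of the 568 (79.8%) had at least 10 counts in all 6 mock and wounded libraries as well, against 109 of the 254 short scaffolds (42.9%). By the rule, the members among them (73 of the scaffolds and 5 of the contigs) could not, which lowers the scaffold share more. The reverse rules found 2 short scaffolds among 167 with the minimum in each wounded library and 0 among 174 in mock.

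**Figure D2:**
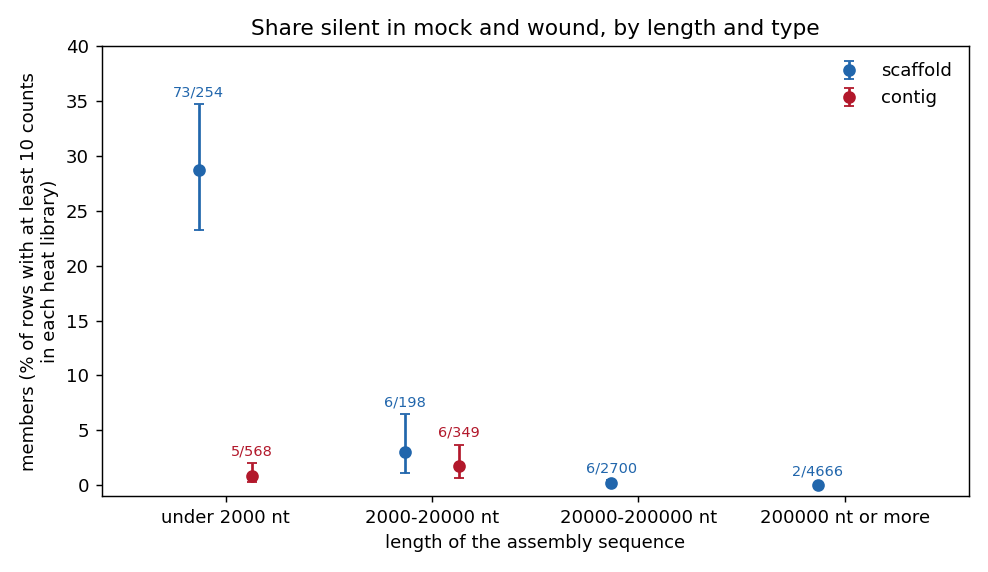
Share of sequences with at least 10 counts in each heat library without a count in mock and wounded libraries (vertical axis, percent), by length class (horizontal axis) for scaffolds (blue) and contigs (red), with exact 95% binomial intervals and the numbers behind each point. Short scaffolds stand at 28.7% and short contigs at 0.88%; the longest classes hold no contigs with the minimum.

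The members made up a visible part of what short scaffolds yielded after heat. All scaffolds under 2000 nt held 0.135%, 0.152% and 0.14% of the count in the mock libraries, 0.197%, 0.194% and 0.191% in the heat libraries, and 0.129%, 0.135% and 0.131% in the wounded libraries. The heat libraries were above all others, and members supplied 21.3%, 21.4% and 18.5% of the short-scaffold count there. Members have no count outside heat by the rule, so taking them out could only lower the heat shares. Without them the heat shares were 0.155%, 0.153% and 0.155%. These lay just above the highest mock library (0.152%) and further above the other mock libraries and all wounded libraries. Short contigs held between 2.15% and 2.39% of the count after heat, and members supplied at most 0.0893% of it. In mock they held 2.24% to 2.8%, a range that overlaps that of heat. In the wounded libraries they held 2.68% to 2.95%, above every heat library. Much of the short-contig count after heat lay on 1 contig, whose mean heat count was 222329.7. All short contigs together held 297752, 337040 and 416816 counts in heat libraries 1, 2 and 3. Shares without that contig were not computed, so the short-contig shares may mostly follow 1 row.

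In total the members held 6786, 7260 and 7803 counts in heat libraries 1, 2 and 3. That was 0.0484% ± 0.00349 of a heat library (SD, n = 3), or 508 ± 42.7 CPM, where CPM is the count per 1000000 of the library size scaled by the trimmed mean of M-values (TMM). The 3 libraries were close together, from 473 to 555 CPM. On the deposited TPM scale, which divides by sequence length, the same members made up 1.69% ± 0.165 of a heat library. That scale is dominated by 1 row, which alone took 38% to 42.2% of a heat library's TPM. With that row taken out of the total, the members made up 2.85% ± 0.21 (SD, n = 3).

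A single member typically had few reads. The summed heat count per member had a median of 110, with quartiles of 57.5 and 227.5, and ran from 32 to 2546. In heat library 1 the lowest, median and highest counts were 10, 31.5 and 1026. In heat library 2 they were 10, 31.5 and 742, and in heat library 3 they were 10, 42.5 and 778. Summed counts of at least 100 were held by 52 members and of at least 1000 by 5.

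The most abundant member was the scaffold Niben101Scf21159 (positions 1 to 926), with 1026, 742 and 778 counts in the heat libraries. It stood at 59.6 ± 14.1 CPM (SD, n = 3) and 61.7 ± 16.5 RPKM, the deposited count per kilobase of sequence and per 1000000 reads. Heat library 1 was the highest for it on both scales. The second was the scaffold Niben101Scf21974 (positions 1 to 781), with 387, 489 and 649 counts, or 35 ± 5.93 CPM and 42.6 ± 6.09 RPKM. Here heat library 1 was the lowest.

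A further 3 scaffolds formed the rest of the leading group. A scaffold of 967 nt had 428, 554 and 424 counts (33.1 ± 8.5 CPM). A scaffold of 597 nt had 448, 459 and 357 counts (29.8 ± 7.19 CPM), and per length it ranked second, at 47.7 ± 11.7 RPKM. The fifth, of 1124 nt, had 376, 438 and 375 counts (27.9 ± 5.41 CPM). All 3 were highest in heat library 2 and lowest in heat library 3 by CPM. From the second to the fifth, neighbours differed in mean CPM by less than the SD of either, and their order was not tested.

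Below these the counts dropped. The sixth member was the one long sequence among the first 10, a scaffold of 114352 nt with 155, 245 and 215 counts (14.4 ± 3.89 CPM). By RPKM it ranked 91 of the 98 members, at 0.119. Members 7 to 10 were scaffolds of 625, 696, 671 and 657 nt with summed counts of 575, 492, 447 and 432. The tenth was uneven, with 212 counts in heat library 1 against 97 and 123. All of the first 10 were scaffolds, and 9 were under 2000 nt.

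Few members thus carried much of the count. The first held 11.7% of the 21849 member counts, the first 5 held 36.3%, the first 10 held 48% and the first 20 held 63.2%. It took 12 members to reach 50% and 59 to reach 90%, while the 49 lowest held 14.1%. Ordered by RPKM, 9 members reached 50% and 49 reached 90%, and 9 of the first 10 were the same by both measures. The 5 leading members were also the first 5 in each heat library taken alone, and the first 10 of a single library held 52%, 50.3% and 44.1% of its member counts.

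**Figure D3:**
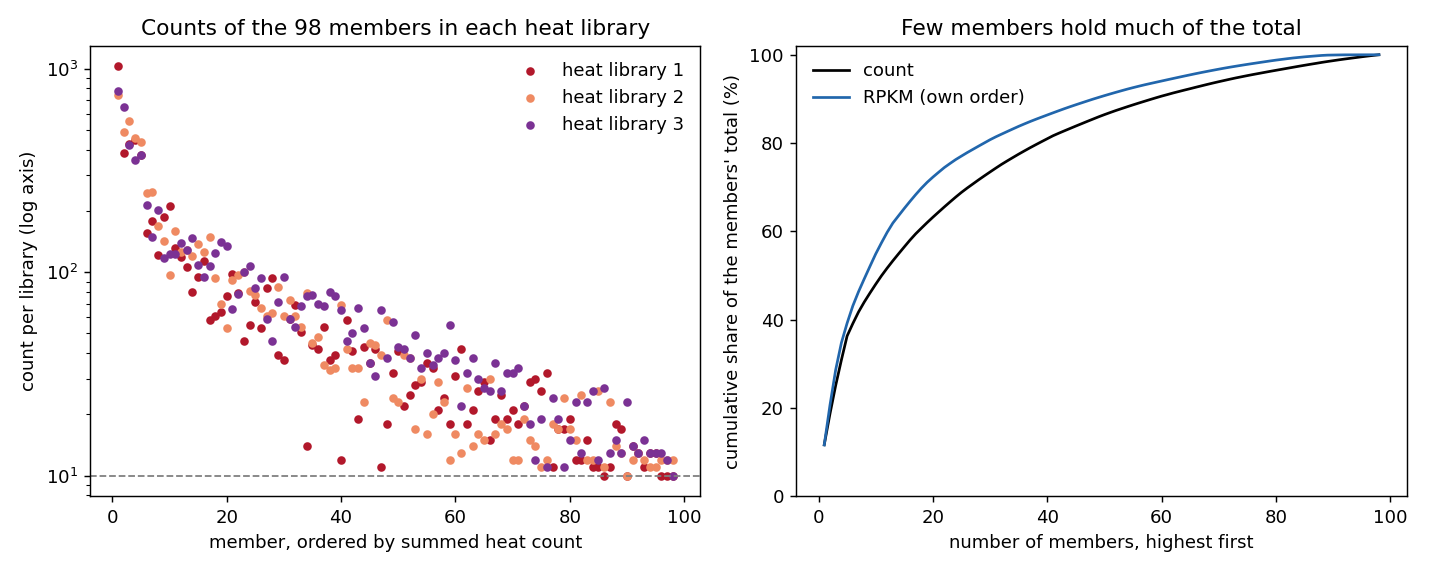
Left, count of each member in heat libraries 1, 2 and 3 (vertical log axis) in the order of the summed heat count (horizontal axis), with the minimum of 10 as a dashed line. Right, cumulative share of the members' total count (black) and total RPKM (blue, in its own order) against the number of members, reaching 48% and 54.9% at 10 members.

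Levels per length set the short members apart from the long ones, but not from other short sequences. Among members under 2000 nt the median heat level was 2.59 RPKM (quartiles 1.48 and 6.13), and that of the other sequences of this length with the heat minimum was 3.17 RPKM (1.79 and 7.1). From 2000 to under 20000 nt the medians were 1.32 RPKM for members and 0.895 for others, and from 20000 to under 200000 nt they were 0.0208 and 0.187. The 8 members of at least 20000 nt ran from 0.0117 to 0.131 RPKM. On such rows the value spreads the reads of what may be 1 transcript over the whole length.

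The longest member, a scaffold of 425468 nt, had 58, 149 and 107 counts, and the next, of 205832 nt, had 37, 33 and 80. They were 2 of the 4666 scaffolds of at least 200000 nt with the heat minimum (0.0429%). Among the 11 contigs, the highest count fell on one of 526 nt with 64, 70 and 141 counts (6.19 ± 2.07 CPM), followed by one of 2924 nt with 98, 92 and 66 (6.06 ± 1.79 CPM). Contigs held 9.01% of the member counts, with a median length of 2050 nt against 900 nt for the scaffolds.

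Heat libraries, which are separate biological replicates, differed in the level of single members. The SD over the mean of CPM had a median of 26% over members, and it ran from 5.69% to 69.8%. For scale, the relative counting error of a member's mean heat count (1 over its square root) had a median of 16.5%. The highest and lowest heat library differed by more than 2-fold in 29 members and by more than 3-fold in 8. No heat library was the outlying one throughout: library 1 was the highest for 27 members, library 2 for 39 and library 3 for 32, and they were the lowest for 34, 25 and 39.

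The largest difference was that of a contig of 1211 nt, with 12, 69 and 65 counts, a ratio of 6.03 between heat libraries 2 and 1 by CPM. A contig of 6612 nt followed with 14, 79 and 76 counts and a ratio of 5.92. Both were low in heat library 1, as was a scaffold of 634 nt with 11, 39 and 65 counts. The opposite pattern also occurred, for example in a scaffold of 544 nt with 32, 12 and 11 counts.

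Within the same classes of mean heat count, the abundant members had a larger median spread between heat libraries than other short sequences, a difference that was not tested. Counts were not matched further inside a class. At a mean heat count of 100 to under 1000 the median SD over mean was 24.1% for 15 members under 2000 nt and 15.7% for 158 other sequences of that length (quartiles 10.1% and 24%). At 30 to under 100 counts the medians were 29% for 26 members and 24.6% for 324 others, and at 10 to under 30 they were 23.5% for 37 and 27.4% for 238. The minimum of 10 in every heat library favours an even spread at the lowest counts. Across the 98 members, log2 CPM of heat libraries had Pearson r values of 0.87, 0.86 and 0.901 and Spearman values of 0.8, 0.817 and 0.867 for the pairs 1 and 2, 1 and 3, and 2 and 3. The 5471 other tested sequences with at least 10 counts in each heat library and a mean heat count up to that of the highest member had Pearson r values of 0.957, 0.967 and 0.952 for the same pairs. These sequences were of all lengths and were matched on the highest count alone, so the r values do not compare like counts. A mean heat count of 10 to under 30 was held by 43 members and 581 other sequences with the heat minimum. At 100 to under 1000 there were 17 members and 3981 others, of all lengths. The relative counting error at their median counts was 8.19% and 5.19%, so the members had the lower counts in this class. The sequences share those libraries, so the values are descriptions and have no p.

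**Figure D4:**
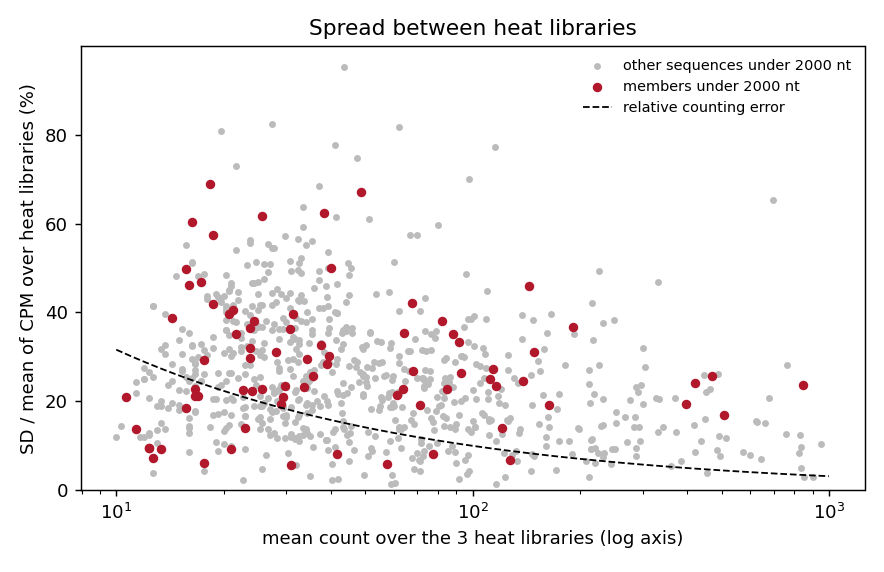
SD over mean of CPM across the 3 heat libraries (vertical axis, percent) against the mean heat count (horizontal log axis) for members under 2000 nt (red) and other sequences under 2000 nt with at least 10 counts in each heat library and a mean of up to 1000 (grey). The dashed line is the relative counting error at that mean count; at 100 to under 1000 counts the medians were 24.1% and 15.7%.

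How far below heat the other groups lay is bounded by depth. With no count, a level of up to 3 counts per library is allowed, which is 0.1751 to 0.1935 CPM in mock and 0.1946 to 0.2031 CPM in wounded libraries. This floor covers counting error alone, not differences between plants. Sequences chosen with replicate number 2 or 3 held out had up to 19 and 13 counts in the held-out mock library. The bounds set the mean heat CPM against the highest floor of a group. By this counting bound, Niben101Scf21159 was at least 308-fold higher after heat than in mock and at least 293-fold higher than after wounding. For Niben101Scf21974 the bounds were 181-fold and 172-fold. The median bound over members was 12.9-fold against mock and 12.3-fold against wounded leaves, and the lowest were 3.88-fold and 3.7-fold. A bound of at least 100-fold against mock was reached by 5 members and of at least 10-fold by 58.

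A model over all sequences gave the background for these calls. The filter on low counts kept 9645 sequences, and 27.4% of them were higher after heat than in mock by edgeR's quasi-likelihood test with a Benjamini-Hochberg adjusted p under 0.05, and 26.7% were higher than after wounding. Of the 98 members, 95 passed the filter, all through their heat counts, and 95 were called higher in both comparisons. In 23.3% of the 9645 sequences all 3 heat libraries lay above the 6 others, which holds for every member by the choice made. Since the choice used both contrasts, nothing is read from these counts.

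Libraries left out of the choice give a reading the rule did not use. When replicate number 1 of every group was held out, 135 sequences met the rule in the other 6 libraries. In the held-out heat library 109 of them (80.7%) had at least 10 counts, 23 had 1 to 9 and 3 had none. The held-out mock library had no count for 130 and at most 4, and the held-out wounded library had none for 126 and at most 3. With number 2 held out, 123 were chosen and 111 (90.2%) reached 10 counts, 118 were at 0 in mock and 112 in wounded leaves, with at most 19 and 5 counts. With number 3 held out, 111 were chosen and 104 (93.7%) reached 10, 106 were at 0 in mock and 109 in wounded leaves, with at most 13 and 4 counts. The held-out heat library exceeded both the held-out mock and wounded libraries in 131 of 135, 120 of 123 and 111 of 111 sequences. In each choice 98 of these were the members, for which this holds by the rule. The share over all sequences was not computed for this comparison, so nothing is read from these counts.

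Choosing from heat and mock alone left the wounded libraries unused. That gave 121 sequences, of which 98 (81%, exact 95% interval 72.9% to 87.5%) had no count in any wounded library. The other 23 had 1 to 42 counts over the 3 wounded libraries, with a median of 3, and 16 of them were counted in 1 wounded library. Choosing from heat and wounding gave 115 sequences, of which 98 (85.2%, 77.4% to 91.2%) had no mock count. The other 17 had 1 to 13 mock counts with a median of 2, and 10 were counted in 1 mock library. The 2 choices share the heat libraries and most of their sequences. For scale, 41156 of all 56094 rows had no count in the mock and wounded libraries together. Among the 8735 rows with at least 10 counts in each heat library, 1.12% had none. Silence in a left-out group is thus common over the table, and the shares are descriptions.

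The requirement of no count at all left out the sequence with the most heat counts among those without a mock count. A contig of 1056 nt had 7097, 8452 and 8804 counts after heat and 0 in every mock library, but 0, 6 and 4 in the wounded libraries, and so was no member. Its 24353 heat counts exceeded the 21849 of all 98 members together. After heat it was 566 ± 70.3 CPM (SD, n = 3), and the ratio of summed heat to summed wounded counts, scaled for TMM library size, was 2554, with an exact 95% counting interval of 1388 to 5326. A contig of 1403 nt was left out by 16, 22 and 4 wounded counts, with 536, 259 and 1297 after heat and a library-scaled ratio of 52.2 (38.5 to 72.7). Both intervals cover counting error alone and leave out the spread between libraries, which was wide for this contig. All 23 sequences excluded by wounded counts alone held 32857 heat counts, and the 17 excluded by mock counts alone held 3202.

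At the lower edge the members ran on without a gap. Of the rows silent in mock and wounded leaves, 5 had a lowest heat count of 10 and 11 had one of 11, while 7 had a lowest count of 9 and 7 had one of 8. Just inside was a scaffold of 826 nt with 10, 12 and 10 counts, and just outside a scaffold of 613 nt with 9, 11 and 11. A further 11 sequences had at least 10 counts in each heat library and were left out by 1 count over the 6 mock and wounded libraries.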

How the data were processed

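Leaf RNA was sequenced from 9 libraries, 3 in each of 3 groups, and 1 table was analysed. Its whole-number counts per assembly sequence were used as deposited. The authors' RPKM values are counts per sequence length and library total, the authors' TPM values sum to 1000000 in each library, and the deposited columns headed CPM are a scaled signal that was not used. The sources used here do not give the aligner, the build, the use of strand or the treatment of reads that match several places, so sequences with near-identical copies are uncertain. Groups and replicate numbers come from the sample titles.

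Sequences were chosen by counts (0 in 6 libraries, at least 10 in each heat library). The members, length classes and comparisons were chosen with earlier results of these data known. Identifiers are printed for the first 2 members by summed heat count, and others of the first 10 are described by type and length. Further sequences at the edges of the rule, the uneven members and the contrast of short scaffolds and contigs were chosen after their values were seen. CPM were computed with TMM factors from edgeR 4.0.16 (R 4.3.3) over the sequences kept by filterByExpr. The background came from 1 quasi-likelihood model of the 3 groups with Benjamini-Hochberg adjustment at 0.05, tested on simulated data. DESeq2 1.42.0 was an alternative. Shares carry exact 95% (Clopper-Pearson) intervals. Since PCR copies cannot be told from separate molecules without molecular identifiers, the intervals and the floor of 3 counts cover counting error alone. Library totals of 13846165 to 17480792 counts set the precision. Columns not mapped to a sample numbered 0.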

Additional observations from a re-analysis of the deposited data

How the results depend on the processing

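The number of members followed the rule's minimum, as it must: 155 at 5 counts, 51 at 20 and 29 at 50, against 98 at 10. It was 68 at 1 CPM, 109 with 1 and 126 with 3 counts allowed in mock and wounded libraries, and 99 to 123 when 1 library was left out. The members' share of a heat library was 0.0527%, 0.0417% and 0.0351% at minimums of 5, 20 and 50, and 0.0468% to 0.0503% without 1 heat library. By deposited TPM it was 1.69%, because that unit divides by length. At a minimum of 50 counts 5 members held 50% of the count, and 90% was held by 35 members at a minimum of 20 and by 22 at 50. Without 1 heat library the median spread between heat libraries was 19.8% to 26.1%, the lowest without replicate 3, and the cause was not tested. The sequences that also met the rule in the held-out libraries were by definition the same 98 members in each of the 3 choices. They made up 79.7% of the chosen sequences over the 3 choices, with 88.3% for replicate number 3 and 72.6% for number 1. The short-scaffold share stayed between 24.7% and 31.8% and the short-contig share between 0.493% and 1.89% under minimums of 5, 20 and 50 and without any 1 library, alternatives added after seeing the data.

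The sample titles link same-numbered libraries by nothing but the number. Correlations of same-numbered libraries' deviations from their group means ran from -0.144 to 0.109. With so few libraries per group, these values cannot decide whether the numbers mark a pairing. With the replicate block, 2492 sequences over the whole table were higher after heat than in mock and 2425 higher than after wounding, against 2642 and 2573 without it. The calls of the members themselves are fixed by how they were chosen (95 with and without the block), so they say nothing about pairing or stability. Depth limits the fold bounds. With the floor of 3 counts taken in 1 mock library, the median bound over members was 12.9-fold. Pooling the counts of 0 over the 3 mock libraries, which was not done, would give higher bounds.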
